A study of Sus scrofa with 24 samples.

Results

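Steroid-making cells of the ovary build their hormones from cholesterol, which they take up from lipoproteins, free from lysosomes, store as esters in lipid droplets and hand on between membranes. The 9 genes described here encode proteins of these steps. They are SCARB1 for uptake, NPC1 and NPC2 for release from lysosomes, STARD3 for transfer between membranes, SOAT1, LIPE and PLIN2 for storage, and APOE and ABCA1 for lipoproteins and efflux. They were chosen by name from the 18753 genes of the deposited table, and all 9 were present and passed the filter on low counts that left 15699 genes for testing.

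The ovaries came from healthy sows of the Chenghua breed, a Chinese pig. Each of 4 stages had 3 sows, with 1 mRNA library per sow: postnatal day 3 (Day 3), postnatal day 120 (Puberty), 1 year of age at sexual maturity (Year 1) and day 105 of pregnancy (Pregnancy). No treatment, allele or transgene is given for any group, and the 12 small RNA samples of the series were not analysed here. By the labels the tissue was fragments of ovary, so a library can mix all ovarian cell types. In the fit of all 12 libraries, each p-value sets a stage difference against the spread between libraries within stages, taken over all 4 stages.

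Library totals were alike, from 14615474 to 16187915 counts, but libraries of a stage were not. The summed level of 6 steroidogenic and luteal markers (STAR, CYP11A1, HSD3B1, LHCGR, PTGFR and RLN2) was 97.6 to 140.9 TPM (a unit scaled for transcript length and library size) at Day 3 and 675.2 to 1433.3 TPM at Puberty. The Year 1 sums were 730.9, 21025 and 18547 TPM. The Pregnancy sums were 306.1, 341.1 and 67344 TPM, and RLN2 alone gave 49365.1 TPM of the last. Year 1 replicate 1 and Pregnancy replicate 3 therefore stand apart from their stage mates, and results that change call or size without them are given both ways. Since all stages share 1 estimate of spread, leaving these libraries out also alters the tests between the other stages. They were picked by marker levels in these same data, and SCARB1 was high in the same libraries as the marker sum. Leaving them out therefore narrows the spread by choice, and adjusted p from such fits is descriptive only. The oocyte markers ZP2, ZP3, FIGLA and BMP15 were at 0 in Year 1 replicate 2, and the summed oocyte list was 1065.5 to 1636.7 TPM at Day 3 against 8.16 to 183.6 TPM in the other stages. The part of oocytes in the differences from Day 3 was not tested. The 4 theca markers summed to 33.8 and 35.8 TPM in Year 1 replicates 2 and 3 and to 4178.8 TPM in replicate 1, and the 6 granulosa markers summed to 411.3, 507.9 and 11014 TPM in the same order.

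Summed over the 9 genes, the level ran from 587.3 TPM in Day 3 replicate 3 to 5791.95 TPM in Year 1 replicate 2. Of that sum SCARB1 made up 53.4% and 49.8% in Year 1 replicates 2 and 3 and 80.4% in Pregnancy replicate 3, but 3.80% to 19.6% in the other 9 libraries. At Day 3 the order of mean levels was APOE, NPC2, PLIN2, SCARB1 and STARD3, followed by SOAT1, ABCA1, NPC1 and LIPE, the lowest. SOAT1, ABCA1 and NPC1 had means of 12.3, 12.2 and 12.1 TPM there and did not differ beyond their spread. The median gap within a stage, as highest over lowest library, was 1.18-fold for the 9 genes at Day 3, 1.69-fold at Puberty, 2.01-fold in Year 1 and 1.76-fold in Pregnancy. Over all genes, on scaled counts, it was 1.27-fold, 1.39-fold, 1.82-fold and 1.69-fold.

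**Figure D1:**
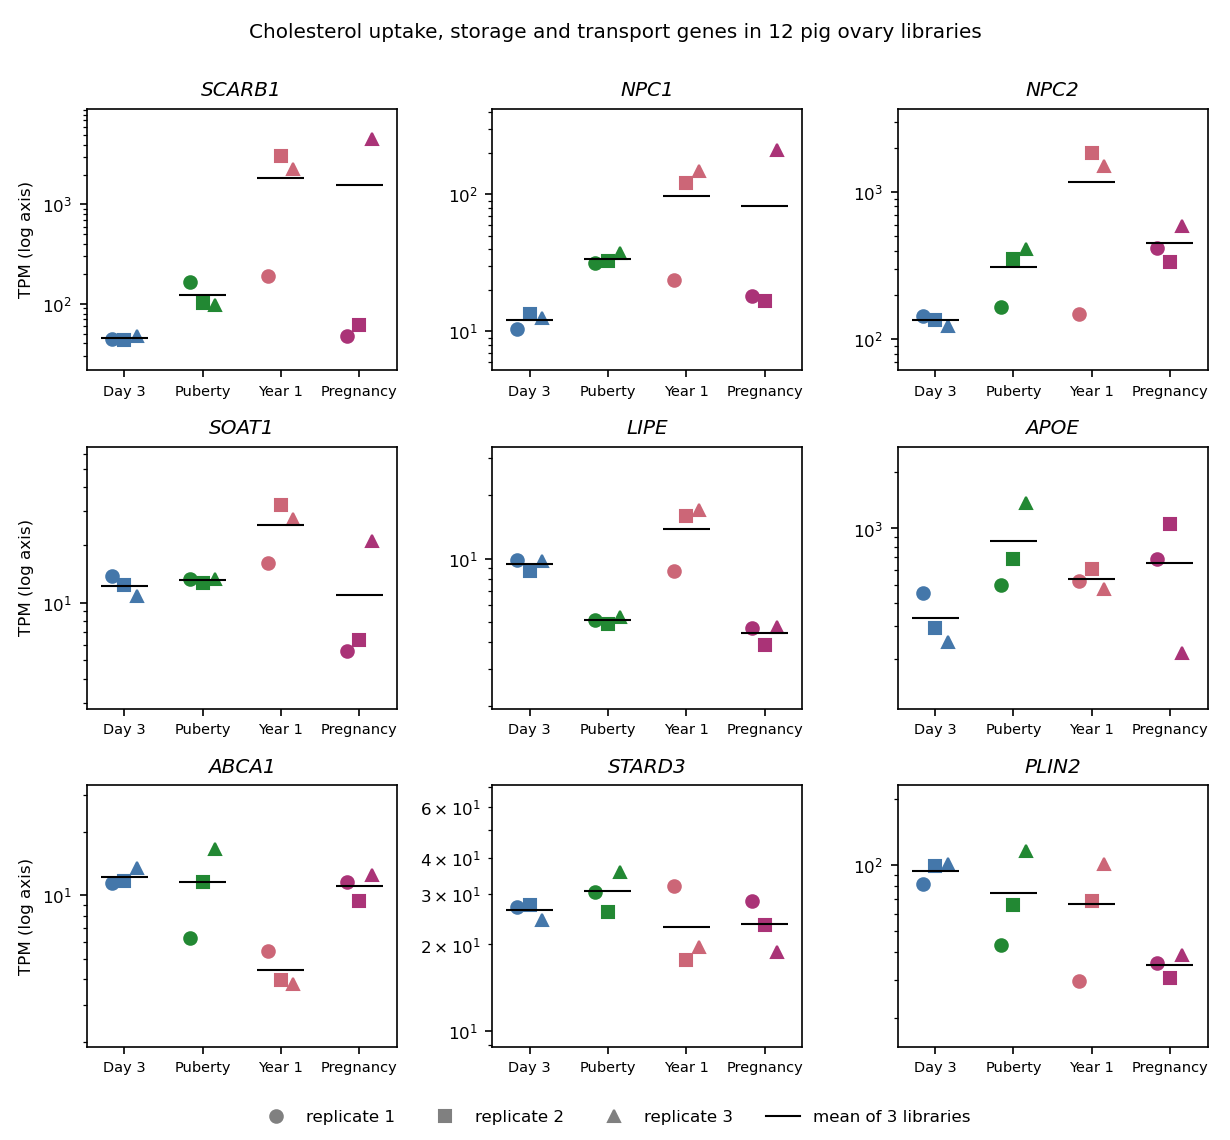
Level of each of the 9 genes in TPM (vertical log axes, which differ between panels) in the 3 libraries of each stage, with a bar at the stage mean. SCARB1 and NPC1 are high in Year 1 replicates 2 and 3 and in Pregnancy replicate 3, NPC2 and LIPE are highest in Year 1 replicates 2 and 3, and ABCA1 is lowest in the 3 Year 1 libraries.

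SCARB1 (chromosome 14, 28301421 to 28393568, plus strand, Sscrofa11.1) encodes the scavenger receptor SR-BI, which takes cholesteryl esters from high-density lipoprotein. It was at 44.4, 42.9 and 47.5 TPM in the Day 3 libraries and at 164.8, 102.4 and 97.4 TPM in the Puberty libraries. In Year 1 it was at 192.7, 3095.6 and 2268.3 TPM, and in Pregnancy at 47.5, 60.8 and 4577.4 TPM. Levels at Day 3, Puberty and Year 1 did not overlap, whereas the Pregnancy libraries spanned 96.3-fold, with replicate 1 at the Day 3 level and replicate 3 the highest of all 12. In Pregnancy replicate 3 it ranked 21 among all genes of the library by TPM. SCARB1 was higher in Year 1 than at Day 3 by 6.25 ± 1.80 (log2 fold change ± SE, adjusted p = 0.0158 by edgeR's quasi-likelihood test with Benjamini-Hochberg adjustment over the 15699 genes, as for each adjusted p below). That call was lost when any single Day 3 library was left out, with adjusted p up to 0.0584 and log2 fold changes of 5.61 to 6.79 over the 12 fits that leave out 1 library.

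SCARB1 was also called higher in Pregnancy than at Day 3, by 5.84 ± 1.76 (adjusted p = 0.0274), but 1 library decided that value. Without Pregnancy replicate 3 it was 0.86 (adjusted p = 0.457), and the call was also lost without any single Day 3 library. With Year 1 replicate 1 left out as well, the value was again 0.86 and passed the threshold (adjusted p = 0.0249). With limma voom it was 1.18 (adjusted p = 0.131), and in a fit of only the stages compared the call was lost at adjusted p = 0.0542. The difference between Puberty and Day 3, whose libraries did not overlap, was 1.78 ± 1.47 (adjusted p = 0.388). It was called in a fit of only these stages (adjusted p = 0.00102), with limma voom (adjusted p = 0.0229) and without both set-apart libraries (1.79, adjusted p = 0.000425). The difference between Year 1 and Puberty was 4.47 ± 1.65 (adjusted p = 0.106), and 5.01 without both set-apart libraries (adjusted p = 5.48e-06). Between Pregnancy and Year 1 the edgeR value was smaller than its standard error with all libraries, and -5.94 without both set-apart libraries (adjusted p = 1.03e-05). SCARB1 and the summed steroidogenic and luteal markers were high in the same 3 libraries. LHCGR, 1 of the 6 markers, differed from the sum: it was at 56.9, 12.3 and 11.0 TPM in Year 1, 21.3, 16.3 and 66.4 TPM in Pregnancy and 93.8, 42.8 and 22.3 TPM at Puberty. NPC1, NPC2 and SOAT1 had their 3 highest levels in these libraries too, and LIPE its highest in the Year 1 libraries among them. In bulk samples fewer cells of a type and less RNA per cell cannot be told apart, and the part of luteal tissue in any of these results was not tested.

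NPC1 and NPC2 encode the pair of proteins that move cholesterol out of the lysosome, NPC1 in its membrane and NPC2 in its lumen. NPC1 (chromosome 6, 108403126 to 108450486, minus strand) was at 10.4, 13.3 and 12.6 TPM at Day 3 and at 31.4, 32.7 and 37.1 TPM at Puberty. It was at 23.8, 121.1 and 149.0 TPM in Year 1 and at 18.1, 16.8 and 210.4 TPM in Pregnancy. Day 3 was below every library of the other stages, and Year 1 replicate 1 fell below the Puberty libraries while its stage mates were above them. NPC1 was higher than at Day 3 in Year 1, by 3.88 ± 1.05 (adjusted p = 0.0117), and in Pregnancy, by 3.46 ± 1.03 (adjusted p = 0.0255). The Year 1 call held in all 12 fits that leave out 1 library, whereas without Pregnancy replicate 3 the Pregnancy value was 1.12 (adjusted p = 0.182). The Pregnancy call was also lost without any single Day 3 library, and was kept at a value of 1.12 when both set-apart libraries were left out (adjusted p = 0.000248). At Puberty NPC1 differed from Day 3 by 1.81 ± 0.96 (adjusted p = 0.181). The same difference was called in a fit of only these stages (adjusted p = 9.42e-05), with limma voom (adjusted p = 0.00148) and without both set-apart libraries (adjusted p = 1.92e-05). Without both, NPC1 was also higher in Year 1 than at Puberty, by 2.56 (adjusted p = 3.46e-06), and lower in Pregnancy than in Year 1, by -3.25 (adjusted p = 3.58e-06); with all libraries edgeR called neither and limma voom both.

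NPC2 (chromosome 7, 97730532 to 97740087, minus strand) was at 145.2, 136.2 and 123.1 TPM at Day 3 and at 165.3, 353.6 and 408.8 TPM at Puberty. It was at 148.4, 1834.0 and 1499.5 TPM in Year 1 and at 415.7, 335.8 and 591.0 TPM in Pregnancy. Its Day 3 libraries were the lowest of the 12, although Year 1 replicate 1 was close to them. NPC2 was higher than at Day 3 in Year 1, by 3.98 ± 0.80 (adjusted p = 0.00266), and in Pregnancy, by 2.39 ± 0.74 (adjusted p = 0.0309). The Year 1 call held in all 12 fits that leave out 1 library. The Pregnancy call was lost without any single Day 3 library and without Pregnancy replicate 1 or 3, with log2 fold changes from 2.07 to 2.58 and adjusted p up to 0.0962. Without both set-apart libraries NPC2 was also higher at Puberty than at Day 3, by 1.52 (adjusted p = 0.00155), higher in Year 1 than at Puberty, by 3.00 (adjusted p = 7.16e-05), and lower in Pregnancy than in Year 1, by -2.45 (adjusted p = 0.00042). With all libraries edgeR called none of these and limma voom all 3. The 3 libraries with high SCARB1 differed in the balance of the pair. NPC2 exceeded NPC1 15.1-fold and 10.1-fold in Year 1 replicates 2 and 3 but 2.81-fold in Pregnancy replicate 3, the smallest ratio of the 12 libraries. Pregnancy replicates 1 and 2 had the largest, 23.0 and 20.0.

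STARD3 (chromosome 12, 22654920 to 22680803, minus strand), also called MLN64, is a late endosomal protein that carries cholesterol to other membranes. It was at 26.9, 27.5 and 24.4 TPM at Day 3, at 30.5, 26.0 and 35.6 TPM at Puberty, at 31.8, 17.7 and 19.6 TPM in Year 1 and at 28.3, 23.3 and 18.9 TPM in Pregnancy. On TPM all 4 stages overlapped, and the 3 libraries with high SCARB1 had the 3 lowest STARD3 levels. On scaled counts Day 3 lay below every library of the other stages, at 24.6 to 27.7 CPM. The 3 libraries with high SCARB1 were at 31.5 to 35.5 CPM. On that scale STARD3 was called higher than at Day 3, by 0.56 ± 0.19 at Puberty (adjusted p = 0.0456). In Year 1 it was called higher by 0.55 ± 0.19 (adjusted p = 0.0311). The Puberty call held in 3 of the 12 fits that leave out 1 library, with adjusted p up to 0.16, and was lost with RLE scaling (adjusted p = 0.0678), upper-quartile scaling (adjusted p = 0.138), library totals only (adjusted p = 0.414) and a minimum count of 50 (adjusted p = 0.0661). The Year 1 call held in 8 and was lost without any single Day 3 library or without Year 1 replicate 1, with adjusted p up to 0.104. It was also lost with upper-quartile scaling (0.34, adjusted p = 0.227) and in a fit of only the stages compared (adjusted p = 0.0529). In Pregnancy against Day 3 edgeR did not call STARD3 with all libraries, and called it without both set-apart libraries (0.56, adjusted p = 0.0146). The direction in Year 1 depends on the scaling. With library totals alone it was -0.01 (adjusted p = 0.966), and the log2 ratio of mean TPM was -0.19.

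Scaling shifts every gene of a comparison together. In Year 1 against Day 3 the median of all genes moved by -0.23 (log2) with upper-quartile scaling and by -0.59 with no scaling beyond library totals, relative to trimmed mean of M values (TMM) scaling. The calls for SCARB1, NPC1, NPC2, SOAT1 and LIPE in Year 1 against Day 3 kept a positive sign under each of the 4 scalings. Of the 54 values of a member in a pair of stages, 12 had a sign unlike that of the ratio of mean TPM, and 1 of these, STARD3 in Year 1 against Day 3, was called.

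**Figure D2:**
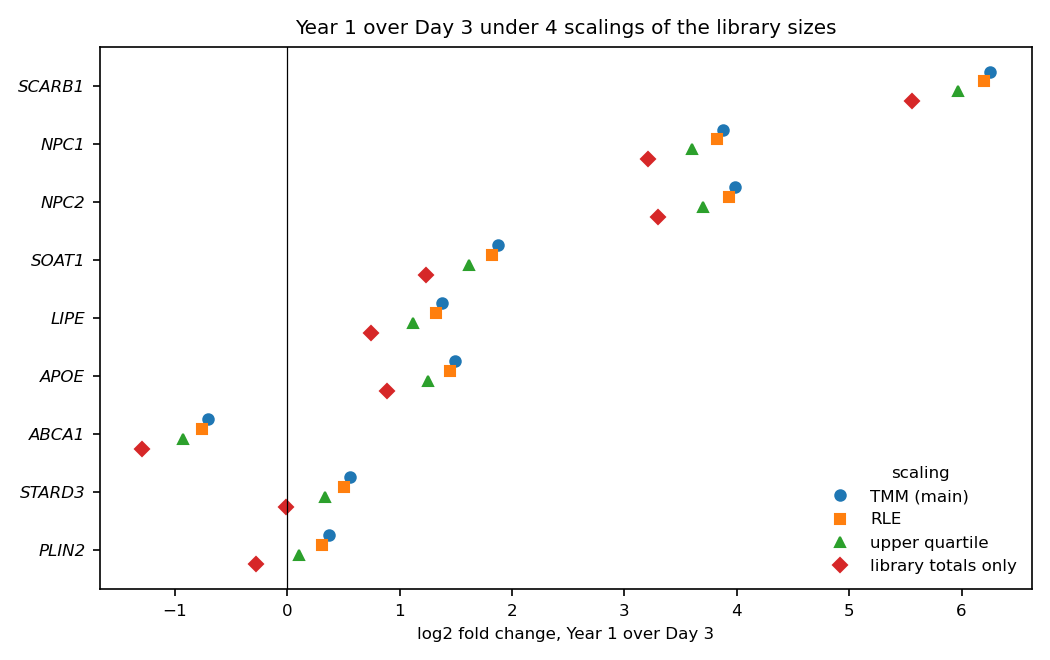
Log2 fold change of each of the 9 genes in Year 1 over Day 3 (horizontal axis) under 4 scalings of the library sizes, each marked by its own symbol. Every gene moves to lower values from TMM to library totals only, and STARD3 ends at -0.01.

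SOAT1 (chromosome 9, 121045211 to 121112393, plus strand) encodes the enzyme that esterifies cholesterol for storage. It was at 13.7, 12.3 and 10.8 TPM at Day 3 and at 13.3, 12.6 and 13.2 TPM at Puberty. It was at 16.2, 32.5 and 27.2 TPM in Year 1 and at 5.59, 6.39 and 21.1 TPM in Pregnancy. Year 1 lay above Day 3 and Puberty with no overlap, and Pregnancy replicates 1 and 2 were the lowest of the 12 libraries. SOAT1 was higher in Year 1 than at Day 3 by 1.87 ± 0.51 (adjusted p = 0.0125), a call that held in all 12 fits that leave out 1 library. It differed between Pregnancy and Year 1 by -1.35 ± 0.50 (adjusted p = 0.119), and by -2.61 without both set-apart libraries (adjusted p = 1.54e-05). DESeq2 called that difference too (adjusted p = 0.0478). Without both, SOAT1 was also higher in Year 1 than at Puberty, by 1.75 (adjusted p = 3.85e-05), and at Puberty than at Day 3, by 0.43 (adjusted p = 0.0284).

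LIPE (chromosome 6, 49543671 to 49560126, plus strand) encodes hormone-sensitive lipase, which splits stored cholesteryl esters and other lipid esters. It was at 9.84, 8.69 and 9.79 TPM at Day 3 and at 5.08, 4.89 and 5.27 TPM at Puberty. It was at 8.73, 15.9 and 16.97 TPM in Year 1 and at 4.70, 3.87 and 4.74 TPM in Pregnancy. Puberty and Pregnancy lay below Day 3 and Year 1 with no overlap, and Pregnancy replicate 3 was like its stage mates, unlike for SCARB1, NPC1 and SOAT1. LIPE had the lowest any-stage adjusted p of the 9 genes, 0.00124. It was higher in Year 1 than at Day 3 by 1.38 ± 0.30 (adjusted p = 0.0039), which held in all 12 fits that leave out 1 library. On TPM Year 1 replicate 1 lay within the Day 3 range, while the scaled counts of these stages did not overlap.

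LIPE was lower in Pregnancy than in Year 1 by -1.83 ± 0.30 on the log2 scale (adjusted p = 0.0401). That call held in 2 of the 12 fits that leave out 1 library, those without Year 1 replicate 1 or Pregnancy replicate 3, while the value stayed between -2.14 and -1.65 and the adjusted p reached 0.153. It was also lost in a fit of only these stages (adjusted p = 0.289). The difference between Year 1 and Puberty was 1.93 ± 0.30 (adjusted p = 0.0624), and 2.24 without both set-apart libraries (adjusted p = 1.35e-05). That between Puberty and Day 3 was -0.55 ± 0.30 (adjusted p = 0.182), and was called at nearly the same size without both (adjusted p = 0.0104), with limma voom (adjusted p = 0.0224) and in a fit of only these stages (adjusted p = 0.0253). LIPE in Pregnancy against Day 3, not called with all libraries, was -0.55 without both (adjusted p = 0.0216). SOAT1 exceeded LIPE 2.05-fold and 1.60-fold in Year 1 replicates 2 and 3 and 4.45-fold in Pregnancy replicate 3, the largest ratio of the 12 libraries. Hormone-sensitive lipase is also an adipocyte enzyme. The 5 measured adipocyte markers summed to 4.06 to 11.3 TPM at Day 3, 38.3 to 61.3 TPM at Puberty, 8.76 to 18.7 TPM in Year 1 and 15.6 to 87.2 TPM in Pregnancy. Most of the highest sum was LPL, at 84.8 TPM in Pregnancy replicate 3. PLIN1, the adipocyte perilipin, was at 1.07 to 1.53 TPM at Day 3 and at 0 to 0.42 TPM in the other libraries, being at 0 in Year 1 replicate 2 and Pregnancy replicate 3. The part of adipocytes in the LIPE values was not tested.

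PLIN2 (chromosome 1, 203683867 to 203709277, plus strand) encodes the perilipin that coats lipid droplets in most cells. It was at 81.7, 98.7 and 101.3 TPM at Day 3 and at 43.0, 65.7 and 116.2 TPM at Puberty. It was at 29.5, 68.8 and 101.3 TPM in Year 1 and at 35.7, 30.4 and 38.9 TPM in Pregnancy. On TPM Pregnancy lay below Day 3 and Puberty with no overlap, and Year 1 spanned 3.43-fold. On scaled counts Pregnancy and Puberty overlapped. With all libraries in 1 fit edgeR called PLIN2 in none of the 6 pairs of stages. Its largest difference there was -1.05 ± 0.43 for Pregnancy against Year 1 (adjusted p = 0.148). That difference was -1.58 (adjusted p = 0.00458) with Year 1 replicate 1 and Pregnancy replicate 3 both left out. In the same fit PLIN2 was higher in Year 1 than at Day 3, by 0.76 (adjusted p = 0.049). With limma voom PLIN2 was called higher in Year 1 than at Day 3 (0.85, adjusted p = 0.00596) and than at Puberty (1.00, adjusted p = 0.00427). It was called lower in Pregnancy than in Year 1 (-1.64, adjusted p = 0.000532) and than at Day 3 (-0.79, adjusted p = 0.0232). A fit of only the stages compared also called the last (adjusted p = 0.0275). Its level in Pregnancy replicate 3 was close to those of replicates 1 and 2.

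APOE (chromosome 6, 51373113 to 51375333, plus strand) encodes apolipoprotein E, which binds lipoproteins to their receptors and accepts cholesterol from cells. It was at 451.8, 290.5 and 244.3 TPM at Day 3 and at 499.1, 685.0 and 1370.4 TPM at Puberty. It was at 524.4, 602.4 and 473.5 TPM in Year 1 and at 682.2, 1056.3 and 215.4 TPM in Pregnancy. Puberty and Year 1 lay above Day 3. On TPM Pregnancy replicate 3, with the highest SCARB1, had the lowest APOE of the 12 libraries. On scaled counts that library was at 152.9 CPM, above Day 3 replicates 2 and 3 at 124.1 and 104.9 CPM. APOE was higher than at Day 3 by 1.69 ± 0.51 at Puberty (adjusted p = 0.0312), by 1.50 ± 0.51 in Year 1 (adjusted p = 0.0327) and by 1.60 ± 0.51 in Pregnancy (adjusted p = 0.0344). Each of these calls held in 8 of the 12 fits that leave out 1 library, with adjusted p up to 0.123. All were lost without Day 3 replicate 2 or 3, and further without Puberty replicate 2 or 3, Year 1 replicate 2 or 3 and Pregnancy replicate 1 or 2 in their own comparisons. With no scaling beyond library totals none of the 3 was called (adjusted p = 0.0711, 0.184 and 0.0945), and with upper-quartile scaling those of Year 1 and Pregnancy were lost (adjusted p = 0.0723 and 0.0524). The Pregnancy call was also lost in a fit of only the stages compared (adjusted p = 0.0569). Year 1, Puberty and Pregnancy differed among themselves by less than a standard error.

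APOE is also made by macrophages. The 10 macrophage markers, of which none was at 0, summed to 526.9 to 873.0 TPM at Day 3, 620.2 to 1534.2 TPM at Puberty, 424.1 to 809.6 TPM in Year 1 and 966.9 to 2304.2 TPM in Pregnancy. Of the 10, 2 were higher at Puberty than at Day 3, against 11.5% of all genes, 4 in Year 1, against 24.0%, and 9 in Pregnancy, against 15.9%. On TPM, though not on scaled counts for APOE, Pregnancy replicate 3 had the highest macrophage sum and the lowest APOE. The part of macrophages in the APOE values was not tested.

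ABCA1 (chromosome 1, 246144277 to 246278492, minus strand) encodes the transporter that passes cellular cholesterol to lipid-poor apolipoproteins. It was at 11.4, 11.7 and 13.5 TPM at Day 3 and at 6.27, 11.6 and 16.7 TPM at Puberty. It was at 5.44, 3.97 and 3.81 TPM in Year 1 and at 11.5, 9.37 and 12.5 TPM in Pregnancy. The 3 Year 1 libraries were the lowest of the 12, replicate 1 included, and Pregnancy replicate 3 was again like its stage mates. ABCA1 was higher in Pregnancy than in Year 1 by 1.22 ± 0.27 (adjusted p = 0.0468). That call held in 2 of the 12 fits that leave out 1 library, those without Year 1 replicate 1 or Pregnancy replicate 3, with values from 1.06 to 1.35 and adjusted p up to 0.171. It was also lost in a fit of only these stages (adjusted p = 0.289) and with no count filter (adjusted p = 0.0545). Year 1 differed from Puberty by -0.94 ± 0.27 (adjusted p = 0.0712) and from Day 3 by -0.71 ± 0.27 (adjusted p = 0.0516). The latter was called lower with RLE scaling (adjusted p = 0.04), upper-quartile scaling (-0.93, adjusted p = 0.0174), library totals only (-1.29, adjusted p = 0.00391) and a minimum count of 50 (adjusted p = 0.0395). It was also called by DESeq2 (adjusted p = 0.0239), by limma voom (adjusted p = 0.00794), in a fit of only these stages (adjusted p = 0.0109) and without both set-apart libraries (adjusted p = 0.0496). The difference from Puberty was called by DESeq2 (adjusted p = 0.0167), by limma voom (adjusted p = 0.00648) and without both set-apart libraries (-0.98, adjusted p = 0.0232).

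**Figure D3:**
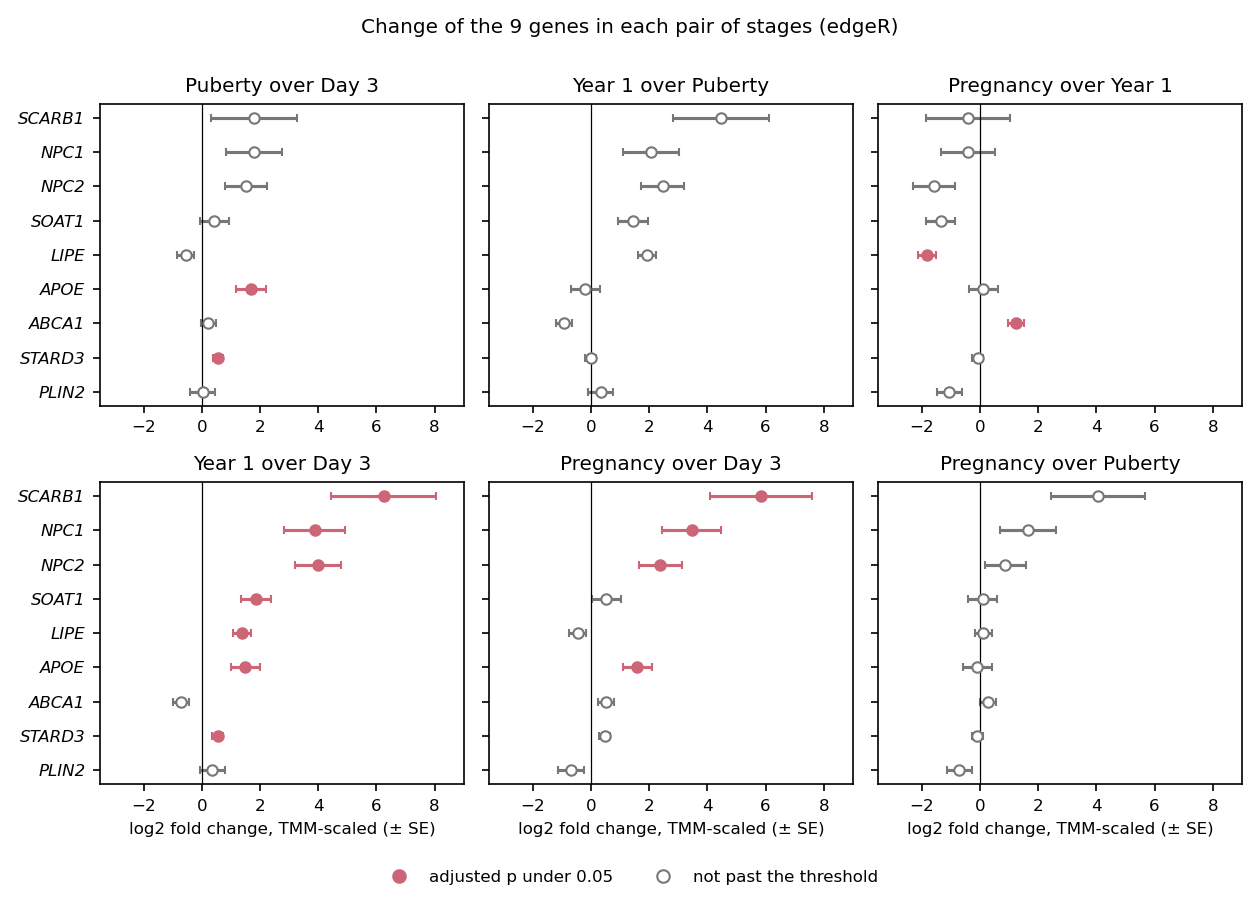
Log2 fold change (horizontal axes, ± SE) of the 9 genes in each of the 6 pairs of stages, from TMM-scaled counts. Filled points mark adjusted p under 0.05: 7 genes in Year 1 over Day 3, 4 in Pregnancy over Day 3, 2 in Puberty over Day 3, 2 in Pregnancy over Year 1 and none in the other pairs.

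Counted over the pairs, Year 1 against Day 3 held the most calls. There 7 of the 9 genes were higher and 0 lower, against 24.0% of all genes higher and 24.0% lower, and the median log2 fold change was 1.50 for the members and 0.03 for all genes. With upper-quartile scaling, or library totals only, the split was 5 higher and 1 lower: APOE and STARD3 were no longer called and ABCA1 was called lower. In Pregnancy against Day 3, 4 were higher and 0 lower, against 15.9% and 18.1% of all genes, with medians of 0.52 and 0.10. In Puberty against Day 3, 2 were higher and 0 lower, against 11.5% and 17.2%, with medians of 0.56 and 0.04. With library totals only, the single call there was LIPE, lower. In Pregnancy against Year 1, 1 was higher and 1 lower, against 1.34% and 1.62%, with medians of -0.42 and 0.05. These comparisons share libraries, those with Day 3 above all, so their counts are not independent. With Year 1 replicate 1 and Pregnancy replicate 3 left out, the counts of members called were 9, 6, 7 and 7 in the same order, while the genes called rose to 10827, 7498, 8378 and 8005.

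No member was called in Year 1 against Puberty by edgeR, where 0.00637% of all genes were higher and 0.0191% lower. At an unadjusted p under 0.05 there were 5 members and 4903 genes. DESeq2 called 5 members (SCARB1, NPC2, SOAT1 and LIPE higher, ABCA1 lower) and limma voom with sample quality weights called 7. Over all genes DESeq2 called 3302 and limma voom 9352 in this pair, where edgeR tested 15699. No member was called in Pregnancy against Puberty either, where 0% of genes were higher and 0% lower. At an unadjusted p under 0.05 there were 1 member, SCARB1, and 1156 genes, and DESeq2 and limma voom called 0 members there and 97 and 117 genes. The SCARB1 value in that pair, 4.06 ± 1.62, was -0.92 without Pregnancy replicate 3. For a difference among any of the 4 stages, 6 members were called, against 46.0% of all genes. APOE, STARD3 and PLIN2 were not.

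In the authors' deposited table, q-values under 0.05 were given to 8 members for Year 1 over Day 3, 7 for Puberty over Day 3, 5 for Pregnancy over Day 3 and 5 for Year 1 over Puberty. The authors' deposited table gave such q-values to 2 members for Pregnancy over Year 1 and 0 for Pregnancy over Puberty. Over all 18753 genes of that table, such q-values went to 8607, 8532, 7241, 1980, 779 and 82 genes in the same order.

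The members did not follow a single pattern across the 12 libraries. Measured as the root mean square difference of centred log2 CPM (scaled counts), SOAT1 and LIPE were the closest pair, at 0.545, and SCARB1 and ABCA1 the farthest, at 2.89. Among 10578 genes with a sufficient mean level, the gene most like SCARB1 was HSD3B1, the enzyme that makes progesterone, at 0.45, followed by RGCC at 0.968. NPC1 was most like SCD, a fatty acid desaturase, at 0.357, and NPC2 most like CAPG, an actin-capping protein, at 0.412. SOAT1 was most like SELENOT at 0.198, LIPE most like ALG3 at 0.204 and ABCA1 most like SIAE at 0.198. APOE was most like CEBPD at 0.319 and STARD3 most like WWC3 at 0.121. PLIN2 was most like ABL2 at 0.198. These are descriptions over 12 libraries that share stages, and genes with little variation come out closest.

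**Figure D4:**
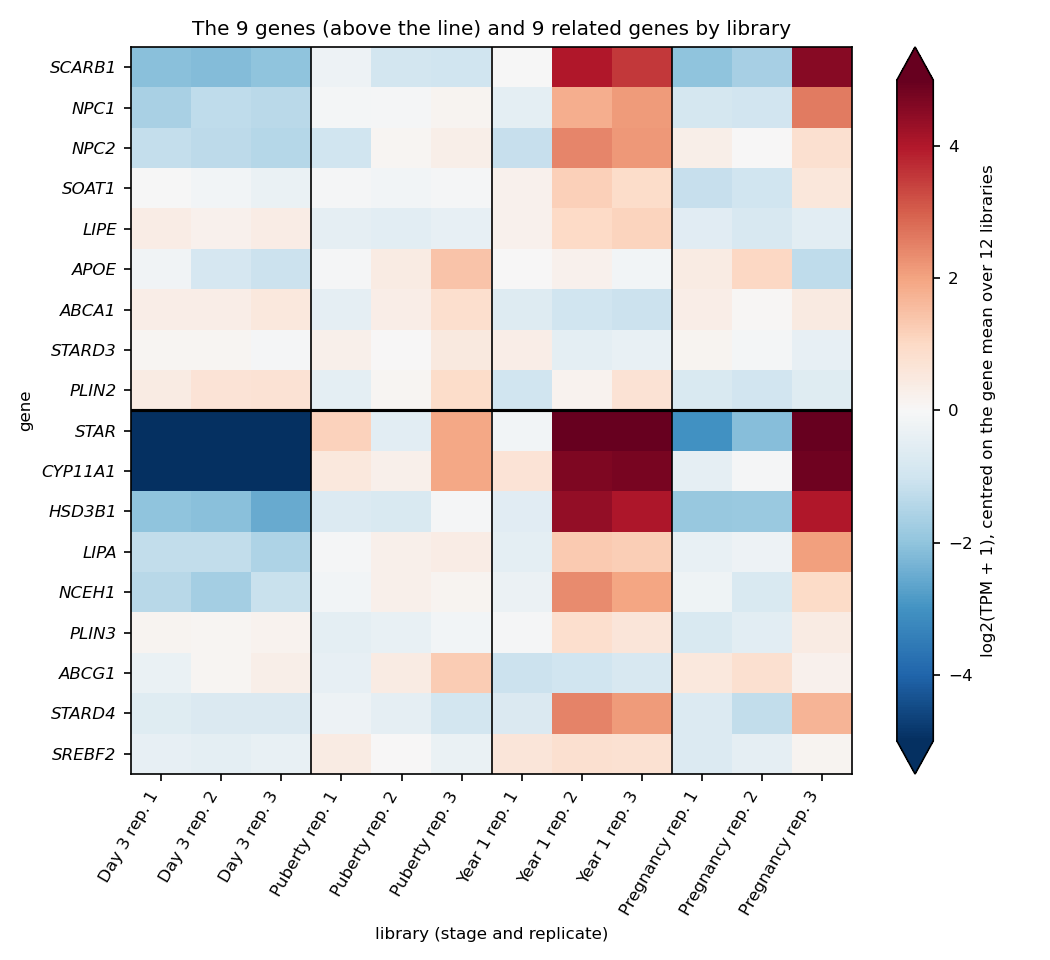
Level of the 9 genes and of 9 related genes (rows) in the 12 libraries (columns), as log2(TPM + 1) centred on the mean of each gene; colours end at 5 in either direction. STAR, CYP11A1, HSD3B1 and STARD4 share with SCARB1 a high level in Year 1 replicates 2 and 3 and Pregnancy replicate 3, while ABCA1 and ABCG1 are low in the Year 1 libraries.

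Beyond the members, 6 lists of the same pathways held 95 genes, of which 88 were tested. In Year 1 against Day 3, 40 of these were higher and 10 lower, against 24.0% of all genes in each direction, as for the counts of single lists below. In Pregnancy against Day 3 the counts were 20 and 5, against 15.9% and 18.1%, and in Puberty against Day 3 they were 16 and 4, against 11.5% and 17.2%. In Pregnancy against Year 1 they were 2 and 3, against 1.34% and 1.62%, and in the other pairs edgeR called none. Of 12 uptake genes, 5 were higher in Year 1 than at Day 3 and 1 lower. LIPC, a lipase of lipoproteins, was higher by 3.97 ± 0.66 (adjusted p = 0.00109), and LRP1, a receptor for APOE, by 1.18 ± 0.27 (adjusted p = 0.00527). Levels of LIPC were low, at 0.34 to 0.75 TPM at Day 3 and 2.08 to 5.47 TPM in Year 1. On TPM LRP1 was at 88.3, 136.7 and 147.1 in Year 1, replicate 1 lying within the Day 3 range of 80.7 to 106.4. LRP1 was lower again in Pregnancy than in Year 1, by -1.23 ± 0.27 (adjusted p = 0.046).

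Of 8 other lysosomal genes, 4 were higher in Year 1 than at Day 3 and 1 lower. LIPA, the acid lipase that frees cholesterol for NPC1 and NPC2, had 83.4, 293.6 and 280.8 TPM in the Year 1 libraries and 494.1 TPM in Pregnancy replicate 3. It was higher than at Day 3 by 3.09 ± 0.73 in Year 1 (adjusted p = 0.00616) and by 2.99 ± 0.73 in Pregnancy (adjusted p = 0.0107). SCARB2, a lysosomal relative of SCARB1, was higher than at Day 3 by 1.55 ± 0.28 at Puberty (adjusted p = 0.00335). TMEM97, which binds NPC1, was higher by 1.49 ± 0.36 in Year 1 (adjusted p = 0.00658).

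Of 18 storage genes tested, 4 were higher in Year 1 than at Day 3 and 5 lower, shares near the 24.0% of all genes in each direction. NCEH1, a cholesteryl ester hydrolase, was higher by 4.10 ± 0.73 (adjusted p = 0.00149), and PLIN3, a droplet protein related to PLIN2, by 1.15 ± 0.36 (adjusted p = 0.0245). On TPM PLIN3 was at 47.5, 88.4 and 76.2 in Year 1 against 53.2 to 56.2 at Day 3, so replicate 1 was lower. PLIN5, a perilipin of oxidative tissues, was lower by -2.91 ± 0.47 (adjusted p = 0.000934), CES1, a carboxylesterase, by -6.51 ± 1.00 (adjusted p = 0.000761) and PLIN1, the adipocyte perilipin, by -3.37 ± 0.85 (adjusted p = 0.0087). CES1 was at 32.7, 48.5 and 32.3 TPM at Day 3 and at most 2.23 TPM elsewhere. SOAT2, the second cholesterol esterifying enzyme, stayed at or under 1.87 TPM in all libraries, against at least 5.59 TPM for SOAT1.

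Of 10 tested efflux and apolipoprotein genes, 4 were higher in Year 1 than at Day 3 and 1 lower. APOA1, the main protein of high-density lipoprotein, was higher by 2.52 ± 0.45 (adjusted p = 0.00161). ABCG4, a sterol transporter, was at 10.4 TPM or more in Year 1 replicates 2 and 3 and at 0.92 to 2.73 TPM elsewhere, and was lower in Pregnancy than in Year 1 by -2.97 ± 0.55 (adjusted p = 0.0401). ABCG1, which passes cholesterol to high-density lipoprotein, was at 2.80 to 3.62 TPM in Year 1, on that scale below all other libraries, as was ABCA1. On scaled counts ABCG1 differed between Year 1 and Day 3 by -0.40 ± 0.38 and was not called (adjusted p = 0.395). It differed between Pregnancy and Year 1 by 1.61 ± 0.39 (adjusted p = 0.0501).

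Of 25 carriers, 16 were higher in Year 1 than at Day 3 and 2 lower. STAR, which moves cholesterol into mitochondria, was at 0.18 to 0.42 TPM at Day 3 and rose by 14.48 ± 3.29 in Year 1 (adjusted p = 0.0051). Its Year 1 libraries were at 50.7, 5294.4 and 5107.3 TPM. STARD4, a cytosolic sterol carrier, rose by 3.64 ± 1.05 (adjusted p = 0.0161), CAV1, caveolin, by 1.38 ± 0.19 (adjusted p = 0.000416) and OSBPL8, a lipid exchanger, by 0.84 ± 0.22 (adjusted p = 0.0103), all on scaled counts. On TPM STARD4 was at 2.41, 30.7 and 23.4 in Year 1 against 2.41 to 2.71 at Day 3, so replicate 1 was no higher. OSBPL8 was at 11.11, 5.65 and 7.00 TPM in Year 1 against 8.05, 7.98 and 6.45 TPM at Day 3, and these overlap. Of 15 regulators, 7 were higher in Year 1 than at Day 3 and 0 lower. SREBF2, which drives sterol synthesis and uptake genes, rose by 1.96 ± 0.30 (adjusted p = 0.000736). NR5A2 rose by 8.38 ± 1.38 (adjusted p = 0.00106) and NR5A1 by 1.65 ± 0.32 (adjusted p = 0.00223). These 2 are nuclear receptors of steroid-making cells. On TPM NR5A1 was at 119.9, 41.6 and 42.6 in Year 1, highest in replicate 1, against 32.55 to 38.08 at Day 3. NR1H3, the sterol-sensing receptor LXR alpha, which in human and mouse drives ABCA1 and ABCG1, rose by 0.64 ± 0.23 (adjusted p = 0.0393) on scaled counts. On TPM it was at 45.0, 33.1 and 30.7 in Year 1 against 34.5 to 39.3 at Day 3.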

How the data were processed

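The submitters' processing notes name Bowtie2 2.3.4.3, RSEM 1.3.1, DESeq2 1.4.5 and the build Sscrofa11.1 for the mRNA data, with no role or order. Expected counts and TPM are as the authors deposited them, per gene and library. Log2 fold changes and q-values by the authors stand in the same table. The expected counts, 92.956% to 94.678% of them already whole in a library, were rounded. Genes passed edgeR's filterByExpr at a minimum count of 10, and TMM factors lay between 0.75 and 1.25. Differences were tested with edgeR 4.0.16 in R 4.3.3 (quasi-likelihood, 1 coefficient for each stage, 12 libraries together), adjusted by Benjamini-Hochberg over 15699 genes, with a threshold of 0.05. The standard error is the log2 fold change divided by the square root of F. TPM gave levels and was not tested. Likeness used log2 CPM with a prior count of 2 and a mean of at least 3.

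The 9 members and all gene lists were chosen with earlier results of these data known. From each list the 2 genes with the lowest any-stage p were named, with a set of 11 named always, of which 1 is not reported here; HSD3B1 and the other genes most like a member followed from the likeness rule. Scripts were tested on simulated counts. Alternatives were RLE and upper-quartile scaling, no scaling beyond library totals (added after seeing the data), no count filter, a minimum count of 50, DESeq2 1.42.0, limma 3.58.1 voom with quality weights, a fit restricted to the stages compared, a replicate block, and leaving out libraries. Libraries of a stage differed by more than sampling noise, with a chi-square per degree of freedom of at least 16.4. Whether genes share reads with near-identical copies was not examined, and strandedness is not given in the sources used here.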

Additional observations from a re-analysis of the deposited data

How the results depend on the processing

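The number of members called in Year 1 against Day 3 was 7 and stayed within 1.5 times of that under each alternative except leaving out single libraries, where it ran from 4 to 8. In Pregnancy against Day 3 (4 members) it was 1 with the replicate block and 0 to 6 without single libraries. In Puberty against Day 3 (2 members) it was 1 with RLE, upper-quartile or no scaling (LIPE, lower, in the last), a minimum count of 50 or the replicate block, 6 with limma voom, 7 with only the stages compared, 7 without both set-apart libraries and 0 to 4 without single libraries. In Pregnancy against Year 1 (2 members) it was 1 with no count filter, 0 with only the stages compared, 0 with the replicate block, 7 with limma voom, 7 without both set-apart libraries and 0 to 5 without single libraries. In Year 1 against Puberty (0 members) it was 5 with DESeq2, 7 with limma voom, 6 without both set-apart libraries and 0 to 6 without single libraries, reaching 6 without Year 1 replicate 1 and 5 without Pregnancy replicate 3. In Pregnancy against Puberty it was 0 under each alternative. Among any stages (6 members) it ran from 2 to 7 without single libraries. The causes were not tested.

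Deviations of log2 CPM from the stage mean correlated from -0.393 to 0.402 between same-numbered libraries, over 0.1 in 5 of 18 pairs. With 3 libraries a stage, some of them set apart, these values cannot decide whether the numbers pair sows. The numbers were not taken to pair sows. The replicate block gave 6 members in Year 1 against Day 3 and 4 among any stages. Under it APOE was called in no pair (adjusted p = 0.0514 at Puberty, 0.0539 in Year 1 and 0.0663 in Pregnancy, each against Day 3), nor were SCARB1 and NPC1 in Pregnancy against Day 3 (4.48, adjusted p = 0.128, and 2.69, adjusted p = 0.0555).

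The value for STARD3, Year 1 vs Day 3, reversed to -0.0145 with no scaling beyond library totals. SOAT1, Pregnancy vs Day 3, was 0.52, and reversed to -0.36 with limma voom and to -0.43 without both set-apart libraries; without single libraries it ran from -0.43 to 0.86. SCARB1, Pregnancy vs Puberty, reversed to -0.55 with limma voom and to -0.92 without both set-apart libraries, and ran from -0.92 to 4.66 without single libraries. NPC1, Pregnancy vs Puberty, was 1.65, reversed to -0.48 and -0.69 in the same settings, and ran from -0.69 to 2.16. Of the 54 values, 15 were below their own standard error, so no direction is read from them.

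Counts over all genes moved too. Year 1 against Puberty went from 4 to 3302 with DESeq2, 9352 with limma voom, 0 with the replicate block, 8262 without both set-apart libraries and 0 to 6159 without single libraries. Pregnancy against Year 1 went from 465 to 2907, 8825, 0 and 8005 in the same settings, to 131 with no count filter, 291 with no scaling, 0 with only the stages compared and 0 to 4913 without single libraries. Puberty against Day 3 went from 4509 to 9222 with limma voom, 7872 with only the stages compared and 2644 to 6128 without single libraries. Year 1 against Day 3 went from 7532 to 11424 and Pregnancy against Day 3 from 5335 to 8703 with limma voom, with 5583 to 9461 and 3302 to 7062 without single libraries. Among any stages 7220 became 13644 with limma voom, 12249 without both set-apart libraries and 4544 to 10583 without single libraries. With no scaling beyond library totals Year 1 against Day 3 split into 1676 higher and 6217 lower genes, and with upper-quartile scaling into 2785 and 4424. With no scaling the split was 858 and 3381 in Puberty against Day 3, 948 and 3870 in Pregnancy against Day 3 and 195 and 96 in Pregnancy against Year 1. With 3 libraries a stage, the number of libraries limits the precision.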
